A study of Mus musculus with 6 samples.

Results

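The mouse array used here carries 16181 probes whose name is a range of genome coordinates with a strand suffix, F or R, in place of a gene or transcript accession. They cover 3540 ranges. The members described below were selected on their own measured signal. A probe was kept where the scanner software marked it as standing well clear of background on 3 or more arrays out of 6, and where it had a usable spot on all 6. This left 3309 of the 16181 probes, lying in 1617 of the 3540 ranges. Another 22 probes (13 F and 9 R) met the detection rule but lost a spot to an outlier mark. Over the whole array, 23101 of 55681 probes were kept by the same rule.

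Long intergenic noncoding RNAs are spliced, often polyadenylated transcripts that arise between protein-coding genes and carry no long reading frame. Many were first located as chromatin domains bearing the histone marks of an active promoter followed by those of a transcribed body. Such marks do not show which strand is copied into RNA, so a probe for each strand is needed to tell a transcript from its antisense partner. Some such RNAs act on chromatin near their own gene, while for most no function is known.

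The livers came from 3 wild-type (WT) mice and 3 mice lacking Gα12, the G protein alpha subunit encoded by Gna12, which relays signals from cell-surface receptors. All were 8-week-old males on a mixed C57BL/6 and 129/Sv background (95% C57BL/6), fed chow and fasted overnight before the liver was taken. The deleted stretch of Gna12 is not named in the labels, nor is it stated whether the WT mice were littermates of the knockouts. The question put by the study's title is how loss of Gα12 alters the hepatic transcriptome.

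Each array was taken as 1 animal, as the labels give 3 mice per group. All arrays shared 1 slide, with the WT group in one row and the knockout (KO) group in the other, so genotype and row cannot be told apart. Spots marked as non-uniform numbered 2 to 6 on WT and 90 to 152 on KO arrays. Of 10 hepatocyte markers, 9 had a probe and all 9 were kept, at mean levels from 6.23 to 10.4, and none passed the test between genotypes. Of 4 skeletal muscle markers, 2 were kept, with 1 higher in the KO at an unadjusted limma p below 0.05, and their median level was -3.90, -3.55 and -2.93 in WT replicates 1 to 3 and -2.96, -1.11 and 0.26 in KO replicates 1 to 3. Among the kept markers of Kupffer cells (4), sinusoidal endothelium (4), stellate cells (3), bile duct (2) and red cells (2), 1 of stellate cells was lower by that measure and 0 were higher. The part of these cell types in the results below was not tested. The Gna12 probe read -3.48, -4.55 and -0.89 in WT replicates 1 to 3 and -4.91, -4.62 and -3.47 in KO replicates 1 to 3. It was well above background on 1 WT array and on no KO array, so it did not meet the detection rule. In a fit without that rule, over 55324 probes, its difference did not pass (limma adjusted p = 0.317). Since a whole piece of liver was measured, fewer cells of a type and less RNA per cell cannot be told apart.

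A level here is the log2 processed signal minus the 75th percentile of that array, so 0 is the brightness below which 75% of the array's signals lie. A difference is the mean KO level minus the mean WT level on that scale. Each probe binds with its own efficiency, so the order of levels between probes is an order of signals and not of RNA amounts. F and R are the suffixes of the names, and whether they mark the strand of the transcript or of the probe is not given in the sources used here. No sequence is printed, and the names were not set against gene models, because the names follow the mm9 build and the reference tables at hand follow another. Whether each range lies between genes was therefore not analysed here.

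The strands were represented almost equally. There were 8171 F and 8010 R probes on the array, of which 1684 F (20.6%) and 1625 R (20.3%) were kept. Most ranges, 2473 of 3540, had probes for 1 strand, with 1251 on F and 1222 on R, and 840 of these had a kept probe. The other 1067 ranges had probes for both strands. In 319 of them both strands had a kept probe, in 242 only F did, in 216 only R did, and in 290 neither did.

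Ranges with a kept probe were longer than those without, with medians of 11776 and 3360 bases. The share of ranges with a kept probe was 30.3% for those under 1 kb (298 of 983), 42.8% from 1 to 10 kb (420 of 981), 56.9% from 10 to 50 kb (685 of 1203) and 57.4% above 50 kb (214 of 373). Longer ranges could carry more probes, up to 10 a strand, so length and the number of chances of detection moved together. Among the 1809 range strands that carried exactly 3 probes, 1147 had none kept, 417 had 1, 139 had 2 and 106 had all 3. By chromosome, the share of ranges with a kept probe ran from 30.1% on X to 57.5% on chromosome 11. Ranges can overlap, and joining those that do left 2223 loci, 1213 of them with a kept probe.

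Detection of the 16181 probes differed by array. The share well above background was 21.6%, 20.9% and 33.7% in WT replicates 1 to 3 and 18.2%, 17.5% and 20.4% in KO replicates 1 to 3. Every WT array lay above every KO array, and WT replicate 3 stood well above the other 5. On that array 33.5% of F and 33.8% of R probes were detected, so the excess was on both strands. Probes named by NM accessions, RefSeq's curated mRNAs, were well above background more often on each array, from 53.5% to 66.4%. Those with NR accessions, RefSeq's noncoding transcripts, ran from 28.8% to 44.4%.

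**Figure D1:**
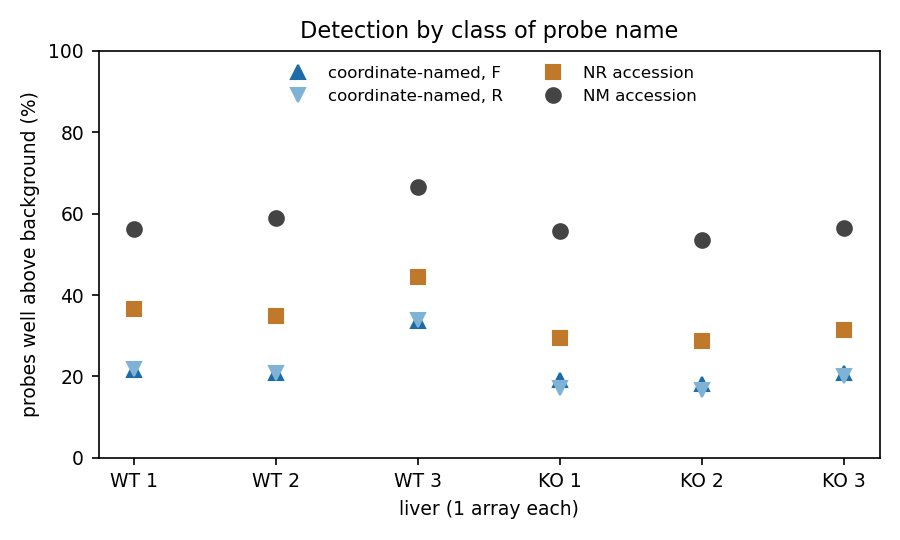
Share of probes well above background on each of the 6 arrays, in percent, for coordinate-named probes by strand suffix and for probes with NM and NR accessions. Coordinate-named probes lay lowest on every array, with F and R close together, and WT replicate 3 stood highest in each class.

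Of the 3309 members, 1959 were well above background on all 6 arrays. Another 292 were so on all 3 WT arrays and on no KO array, while the reverse pattern was met by 0 members. The 292 passed the rule through the WT group alone and so had to differ in detection. At an unadjusted limma p below 0.05, 146 of them were lower in the KO. The same counts were not taken over all kept probes. Over the whole array, 41.2%, 42.2% and 51.6% of probes were well above background in WT replicates 1 to 3. In KO replicates 1 to 3 the shares were 38.8%, 37.3% and 40.3%, so lower detection in the KO was not particular to the members. On the scale of levels, the lowest signal well above background stood at -3.07, -3.42 and -3.88 in WT replicates 1 to 3. It stood at -2.73, -2.48 and -2.79 in KO replicates 1 to 3, higher on every KO array than on any WT array. These values also depend on the brightness of each array, and genotype and slide row cannot be told apart in them. What this difference in the lowest detectable signal did to the count of 292 was not tested. Just inside the detection rule, the 570 members detected on exactly 3 arrays had a median level of -2.90. Just outside it, the 804 probes detected on 2 arrays had a median of -3.40. WT replicate 3 was among the detecting arrays for 556 of those 570.

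Most members were dim. The median level was -1.47, with the 10th and 90th percentiles at -2.87 and 2.24, against medians of 1.07 for kept NM probes and -0.075 for kept NR probes. A level below 0 was found for 2392 members, above 2 for 373 and above 5 for 67. F and R members had median levels of -1.39 and -1.54.

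The brightest member lay on the R strand of chr1:193875525-193978800, a range of 103276 bases, and read 10.81, 10.21 and 9.63 in WT replicates 1 to 3 and 10.38, 10.58 and 10.03 in KO replicates 1 to 3. The groups overlapped, and the difference was 0.11 (SE 0.39). Its only sister probe on that strand was at -2.38. A bright signal in this range therefore rested on 1 probe of 2.

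The R strand of chr17:17481706-17482457, only 752 bases long, read 9.56, 9.39 and 8.56 in WT replicates and 9.18, 9.10 and 8.64 in KO replicates. All 3 of its probes were kept and bright, at 7.80 to 9.07, and their differences lay between -0.32 and -0.20. On the F strand of chr14:22267795-22319045, 6 of 10 probes were kept, at levels from 3.04 to 8.49. The brightest of them read 9.29, 9.15 and 8.21 in WT and 8.13, 8.00 and 8.17 in KO replicates, with WT replicate 3 beside the KO arrays. The groups came close without overlapping, and the difference of -0.78 (SE 0.38) did not pass the test (limma adjusted p = 0.245).

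Of the 5 other members among the brightest 8, 3 had differences from -0.83 to -0.17 that did not pass the test. These were on R of chr11:22681800-22707775, on R of chr7:108209996-108216032 and on F of chr17:48068261-48087905. The remaining pair, on F of chr14:78924115-78938125 and on R of chr12:73838608-73862621, were higher in every KO array than in any WT array. On F of chr14:78924115-78938125 the levels were 5.49, 6.03 and 8.68 in WT replicates 1 to 3 and 9.70, 10.11 and 8.79 in KO replicates 1 to 3, a difference of 2.80 (SE 0.82, limma adjusted p = 0.235). WT replicates 1 and 2 stood far below the rest, and the groups did not overlap. With WT replicate 3 as the only WT array the difference was 0.86.

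Probes of one strand of one range, here called sister probes, gave a measure of how well a range was read. In the 754 range strands with at least 2 kept probes, the median spread of level between sisters was 1.53. The differences of the brightest and next brightest sister had the same sign in 549 (72.8%), with a median gap of 0.47 and a correlation of 0.60 across range strands. These points share the same 6 arrays and are not independent.

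None of the 3309 members passed the genotype test. The lowest limma adjusted p was 0.0636, and 0% of all 23101 kept probes were called. At an unadjusted limma p below 0.05, 429 members (13.0%) were lower in the KO and 388 (11.7%) higher. Over all kept probes those shares were 15.4% lower and 5.61% higher. The groups did not overlap for 446 members lower (13.5%) and 383 higher (11.6%), beside 18.8% and 5.48% over all kept probes. The median difference of the members was 0.035, against -0.39 for all kept probes and -0.45 for NM probes. Of the members past the unadjusted threshold, 52.5% were lower, against 73.3% of all kept probes. These are counts with no test of the difference between probe classes.

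The scaling moved this split. With each array centred on the median of its kept probes, 339 members were lower and 478 higher, and their median difference was 0.17. Over all kept probes the median difference then was -0.25. Where the direction of a dim or weakly changed member is given, it holds relative to the 75th percentile.

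**Figure D2:**
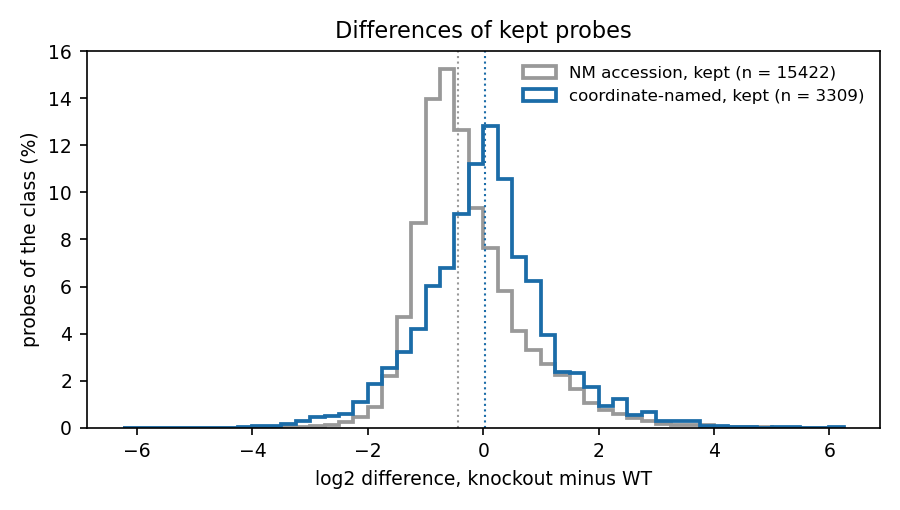
Differences of the kept probes, KO minus WT on the log2 scale, for coordinate-named probes beside kept probes with NM accessions. The coordinate-named probes have a median of 0.035, and the NM probes one of -0.45.

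By array, the median shift of the members from the KO mean was 0.10, -0.23 and 0.034 in WT replicates 1 to 3. For NM probes it was 0.71, 0.62 and 0.052, so WT replicates 1 and 2 stood apart there. Across members, WT replicate 3 correlated at 0.956 with KO replicate 3, above 0.830 and 0.867 with WT replicates 1 and 2. The median SD within a group was 0.54 in WT and 0.31 in KO. Without WT replicate 3, limma called 1313 members (615 lower, 698 higher) and 56.8% of all kept probes. Without WT replicates 1 and 2 together, the median difference was -0.034 for the members and -0.048 for all kept probes. The gap between those medians given above was thus not seen with WT replicate 3 as the only WT array.

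By strand, F members had a median difference of 0.10, of which 193 were lower and 208 higher past the same unadjusted threshold. R members had a median of -0.036, with 236 lower and 180 higher. The 1959 members detected on all arrays had a median difference of 0.15, beside -0.42 for the 17792 probes of any name that met the same condition.

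A limma adjusted p below 0.1 was found for 3 members (0.0907%), all lower in the KO, and for 14 kept probes of any name (0.0606%). All 3 members were well above background on 3 WT arrays and 0 KO arrays. They thus passed the detection rule through the WT group alone, which favoured a lower KO value. Of the 3, the first described below and another lay close together on distal chromosome 2. Within 174943325 to 176302925, a stretch of 1.36 Mb picked out after its values were seen, the array held 56 coordinate-named probes, of which 11 were kept, in 6 range strands. All 11 were lower in the KO, by differences from -4.25 to -1.42 with a median of -3.03. At an unadjusted limma p below 0.05, 9 were lower and 0 higher. The other 201 kept probes of chromosome 2 had a median difference of 0.083, and 25 of them were lower by that measure. Detection on 3 WT arrays and 0 KO arrays was met by 8 of the 11. Those 8 passed the detection rule through the WT group alone, which favoured a lower KO value. The stretch was also set by members already among the largest negative differences. The counts of lower probes in it are therefore a description and not a test of the stretch.

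The R strand of chr2:174945941-174946507 gave the largest of these. Its level was 0.44, -1.11 and -0.42 in WT replicates 1 to 3 and -4.97, -4.70 and -4.16 in KO replicates 1 to 3. All WT arrays were far above all KO arrays, where the probe was not well above background, and the difference was -4.25 (SE 0.47, limma adjusted p = 0.0636). Against the lowest detectable signal of the KO arrays it was at least 4.94-fold lower. Such bounds set the bright group's mean against the mean, per dim array, of the higher of the probe's own level and the lowest signal well above background. They hold for the processed signal only. With normexp background correction, which adds an offset of 50, and quantile normalization the difference was -1.94, a 3.84-fold decrease that is smaller than the bound. With WT replicate 3 as the only WT array the difference was -4.19, close to that over all 3.

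Its sister probe stayed well above background in every array and so gives a measured value on both sides. It read 1.52, 0.11 and 0.59 in WT replicates and -2.07, -1.70 and -1.61 in KO replicates, a difference of -2.53 (SE 0.42, limma adjusted p = 0.171). The groups were separated by more than their own spread.

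Another range of the same length, 567 bases, lies at chr2:175140765-175141331 with its single probe on R. This probe read 0.45, -1.16 and -0.53 in WT replicates and -5.06, -4.81 and -3.19 in KO replicates, a difference of -3.94 (SE 0.61) and at least 4.78-fold lower, but -1.88 (3.68-fold) with normexp. The WT values of both 567-base ranges nearly coincide array by array. Whether their probes share sequence was not analysed here, so they may not be independent measurements. The wider range chr2:174943325-174966675 on R, which contains the first of them, held another 2 kept probes with differences of -3.03 and -1.68.

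Further along, the F strand of chr2:175640275-175701875 had 3 kept probes of 5. The brightest read 0.92, -0.52 and 0.011 in WT replicates and -4.88, -3.25 and -3.43 in KO replicates, a difference of -3.99 (SE 0.56) and at least 7.0-fold lower, but -2.11 (4.30-fold) with normexp. Its sisters differed by -3.57 (limma adjusted p = 0.0991) and -2.12. At the end of the stretch, the kept probes of chr2:176264400-176302925 read lower in the KO on both strands, with the R probe near background in WT. On F, 1 probe read -1.50, -2.33 and -0.81 in WT and -4.94, -4.65 and -4.82 in KO replicates, a difference of -3.26 (SE 0.43) and at least 2.18-fold lower, or -1.33 with normexp. The other F probe differed by -1.42, with KO replicates 2 and 3 overlapping the WT values. The R probe differed by -1.58 and was on no KO array well above background. It read -2.34, -3.00 and -2.98 in WT replicates 1 to 3. The lowest signals well above background were -2.73, -2.48 and -2.79 in KO replicates 1 to 3. A KO level equal to that of WT could thus have gone undetected, and no bound is given.

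With quantile normalization in place of the percentile, limma called 4 of the 3309 members, all lower, and 18 of all 23101 kept probes. All 4 were well above background on 3 WT arrays and 0 KO arrays. They thus passed the detection rule through the WT group alone, which favoured a lower KO value. They were 1 F probe each of chr2:175640275-175701875 and chr2:176264400-176302925, together with chr8:41730287-41746862 on F and chr14:21461716-21462270 on F, each at an adjusted p of 0.0472. The chromosome 8 member read -1.62, -2.48 and -2.22 in WT replicates and -4.95, -4.66 and -4.97 in KO replicates. Its groups were far apart, at a difference of -2.75 (SE 0.35), and it was at least 1.48-fold lower. With normexp the difference was -0.97. The chromosome 14 member had a WT mean of -2.95, below the lowest signal well above background on every KO array, so no bound is given. Its difference was -2.01 (SE 0.34), or -0.49 with normexp. These members were singled out after their values were seen.

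**Figure D3:**
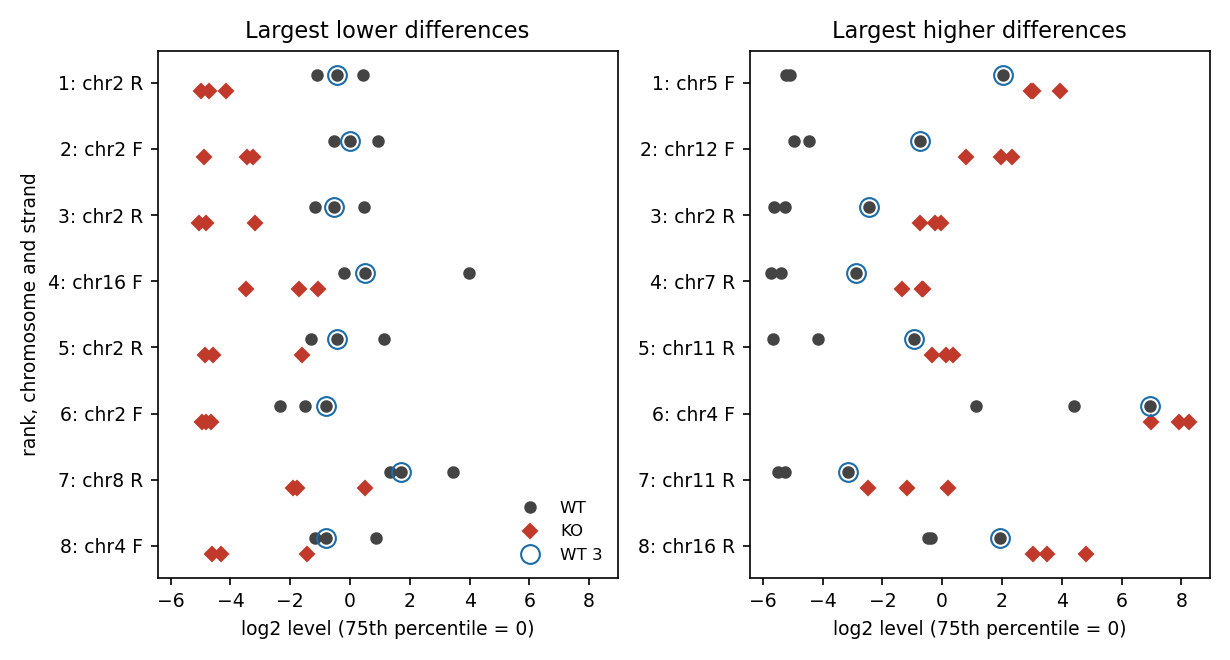
Levels (log2, relative to the 75th percentile) on each WT and KO array of the members with the largest differences among those with an unadjusted limma p below 0.05 and no overlap between groups. Members lower in the KO within the distal stretch of chromosome 2 show all WT arrays together, apart from the KO arrays. In chr2:155269145-155303251, outside that stretch, KO replicate 3 lies close to WT replicate 2. In most members higher in the KO, WT replicate 3 lies nearer to the KO arrays than WT replicates 1 and 2 do.

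Normexp made 6 of the 8 largest negative differences smaller by more than 1.5 times and left the 8 between -2.52 and -1.33. The other members with large negative differences had another pattern, in which KO replicate 3 lay nearer to WT. On R of chr8:72105642-72105922, a range of 281 bases, the level was 3.44, 1.34 and 1.72 in WT replicates and -1.79, -1.90 and 0.51 in KO replicates. The groups did not overlap, KO replicate 3 stood above its fellows, and the difference was -3.22 (SE 0.79, limma adjusted p = 0.235). All 3 probes of this strand were lower, by -3.22 to -2.86.

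On F of chr16:23992037-24001037 the level was 3.99, -0.19 and 0.52 in WT and -1.70, -3.48 and -1.07 in KO replicates. WT replicate 1 was the highest by a wide margin, and the difference was -3.52 (SE 1.11). All 5 kept probes of the strand were lower, from -3.52 to -1.92. The R strand of chr2:155269145-155303251, which lies outside the distal stretch, read 1.14, -1.30 and -0.44 in WT and -4.86, -4.58 and -1.61 in KO replicates. There KO replicate 3 came close to WT replicate 2, and the difference was -3.48 (SE 0.96). The F strand of chr4:129497990-129515290 read 0.86, -1.18 and -0.79 in WT and -4.62, -4.31 and -1.44 in KO replicates, again with KO replicate 3 next to the WT range.

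Long noncoding RNAs with a gene name offer a side-by-side reading of the same arrays. Of 40 listed, 22 had a probe and 17 were kept, with a median difference of -0.69, beside -0.46 for all kept NR probes and -0.39 for all kept probes. At an unadjusted limma p below 0.05, 5 were lower and 0 higher, beside 15.4% and 5.61% of all kept probes and 18.7% and 6.56% of NR probes. None passed after adjustment. Malat1, a nuclear RNA of splicing speckles, read -0.066, -1.90 and -2.16 in WT replicates and -4.32, -3.90 and -1.64 in KO replicates, with KO replicate 3 inside the WT range. Airn, the imprinted antisense RNA of Igf2r, read 0.69, -0.14 and 0.53 in WT and -1.88, -0.73 and -0.62 in KO replicates, with no overlap and a difference of -1.44 (SE 0.45, limma adjusted p = 0.235).

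Members with the largest positive differences were mostly near background in WT replicates 1 and 2, where the value depends on how background is treated. Normexp made 6 of the 8 smaller by more than 1.5 times and left the 8 between 1.38 and 3.95. On F of chr5:22801058-22939737 the level was -5.08, -5.23 and 2.04 in WT replicates 1 to 3 and 2.97, 3.93 and 3.04 in KO replicates 1 to 3. WT replicate 3 sided with the KO arrays, although the groups did not overlap, and the difference was 6.07 (SE 1.77, limma adjusted p = 0.235). Against WT replicate 3 alone it was 1.28, and with normexp it was 3.95. The only other kept probe of that strand differed by 0.40.

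The same shape was seen on F of chr12:81221532-81232030, with -4.95, -4.44 and -0.76 in WT and 1.97, 2.35 and 0.81 in KO replicates. Here WT replicate 3 stayed below every KO array, and the difference was 5.09 (SE 1.05), or 2.47 against WT replicate 3 alone. On R of chr2:119412770-119435110 the level was -5.26, -5.63 and -2.44 in WT and -0.74, -0.23 and -0.032 in KO replicates. With normexp the largest difference there was 1.90 in place of 4.11. All 4 kept probes of that strand were higher, by 1.84 to 4.11, each past the unadjusted threshold and none after adjustment.

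R of chr7:66562376-66579519 differed by 3.78 (SE 0.73) and R of chr11:55315017-55322092 by 3.48 (SE 0.83), both with 1 WT array well above background and at 1.67 and 1.38 with normexp. On R of chr11:95627874-95640824, 6 probes were kept and all were higher, by 1.51 to 3.62, of which 5 passed the unadjusted threshold. WT replicate 3 lay inside or above the KO range in all but the probe with the largest difference and the dimmest probe. The probe that differed by 2.22 read -1.63, -2.39 and 1.69 in WT and 1.35, 1.65 and 1.34 in KO replicates. Against WT replicate 3 alone the largest difference was 0.99 in place of 3.62. The remaining pair of members with the largest positive differences were detected on every array. On F of chr4:94742359-94822969 the level was 1.12, 4.41 and 6.94 in WT and 7.92, 8.25 and 6.97 in KO replicates, so that WT replicate 3 and KO replicate 3 were level. On R of chr16:39984031-40081556 it was -0.49, -0.38 and 1.95 in WT and 3.52, 4.80 and 3.04 in KO replicates, a difference of 3.43 (SE 0.75). There the other 3 kept probes differed by 0.043 to 1.13.

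The probes for F and R of one range were then set side by side in the 319 ranges with a kept probe on each, using the brightest kept probe per strand. F was brighter in 166 and R in 153, and the gap had a median of 2.09 and exceeded 3 in 114. Levels of the strands correlated at 0.075 across ranges. Genotype differences had the same sign on both strands in 149 ranges (46.7%), with a correlation of -0.12 and a median gap of 0.96. Sister probes of one strand, as given above, shared the sign in 72.8%. Without WT replicates 1 and 2 the counts were 162 of 319 for opposite strands (50.8%) and 506 of 754 for sisters (67.1%).

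In 22 of the 319 ranges both strands had an unadjusted limma p below 0.05. Both strands were higher in the KO in 7, both lower in 0, and opposite in 15, of which F was the higher in 10 and R in 5. Against WT replicate 3 alone, 13 of the 15 still had opposite signs. Only F passed that threshold in 55 ranges and only R in 51.

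**Figure D4:**
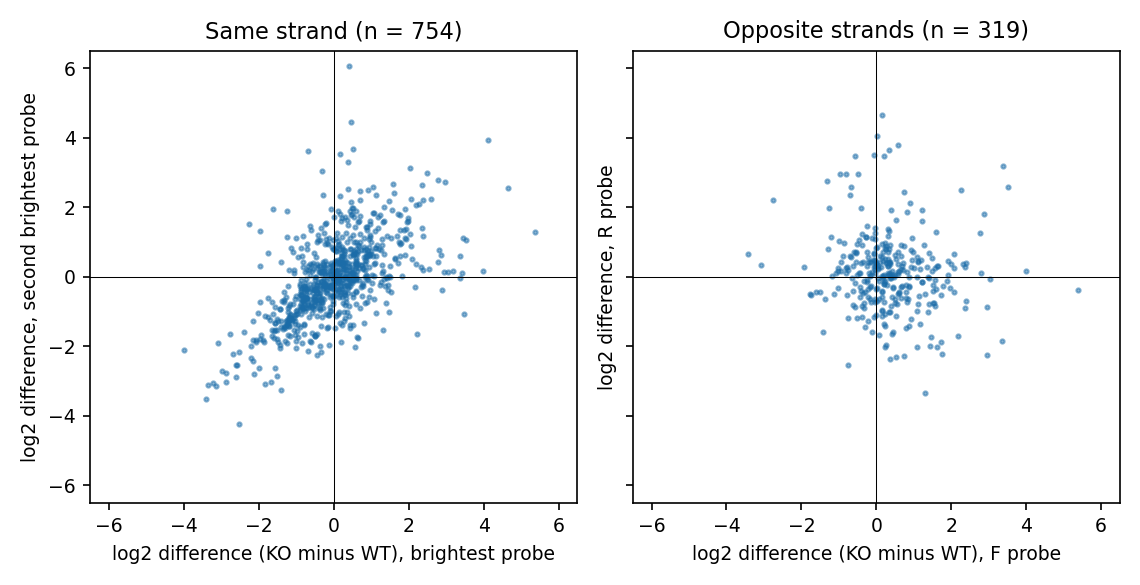
Differences (KO minus WT, log2) of the F and R probes of the 319 ranges with both strands kept, beside those of sister probes of one strand in 754 range strands. Opposite strands share the sign in 46.7% and sister probes in 72.8%.

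Among ranges bright on both strands, chr12:73838608-73862621 was higher in the KO on each. F read 3.83, 5.02 and 7.41 in WT and 8.42, 8.88 and 7.58 in KO replicates, and R read 6.62, 6.81 and 7.99 in WT and 9.01, 9.65 and 8.21 in KO replicates. Both strands had WT replicate 3 just under KO replicate 3, and the differences were 2.87 (SE 0.86) and 1.81 (SE 0.52). The brightest probes of chr5:34696192-34722842 differed by 2.78 (SE 0.74) on F and by 1.25 (SE 0.52) on R. On R the groups overlapped, with WT replicate 3 and KO replicate 3 both at 3.82. The other kept R probe of that range differed by -0.14, and the other kept F probes by -0.11 to 2.79.

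Elsewhere the brightest pairs parted. In chr16:8738782-8830148, F was nearly flat, from 3.15 to 3.68 over the 6 arrays, with a difference of 0.16 (SE 0.30). R read -1.39, -0.75 and 4.03 in WT and 5.47, 6.38 and 4.02 in KO replicates, so WT replicate 3 and KO replicate 3 overlapped there, and the difference was 4.66 (SE 1.36). In chr12:119825125-119850750, F read 8.03, 7.25 and 6.32 in WT and 6.29, 6.22 and 6.12 in KO replicates while R read 1.12, 1.32 and 2.35 in WT and 2.76, 2.80 and 2.30 in KO replicates. The differences were -0.99 (SE 0.46) and 1.02 (SE 0.41), with WT replicate 3 close to the KO arrays on both strands.

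The pair on chr7:108209996-108216032 differed by 1.56 (SE 0.41) on F and -0.83 (SE 0.49) on R. In chr1:182686731-182709331 the values were -0.66 (SE 0.83) on F and 0.56 (SE 0.35) on R, and in chr6:145647711-145756861 they were 0.16 (SE 0.30) and -0.96 (SE 0.54). Only chr6:86425510-86450160 was steady on both, with 0.35 (SE 0.33) on F and 0.40 (SE 0.33) on R. None of these passed after adjustment.

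The widest gap between strands was in chr6:116092274-116144199, chosen for that gap. F read 5.03, 5.47 and 8.33 in WT and 9.33, 9.98 and 8.41 in KO replicates, and all 3 of its kept probes were higher, by 1.33 to 2.96. R read 1.90, -0.53 and 0.67 in WT and -2.81, -2.50 and 0.57 in KO replicates, where KO replicate 3 lay inside the WT range. R carried 9 kept probes of 10 and they disagreed among themselves, with differences from -2.36 to 1.51.

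In chr3:36280098-36347798 neither strand's groups overlapped. F read 0.97, -0.69 and -2.32 in WT and -3.60, -3.91 and -2.79 in KO replicates, a difference of -2.75 (SE 0.78), and R read -3.04, -3.14 and -1.19 in WT and -0.061, -0.031 and -0.62 in KO replicates, a difference of 2.22 (SE 0.56). WT replicate 3 was the nearest WT array to the KO on both, and the F difference was -1.43 with normexp. The other kept R probes ranged from -1.63 to 2.35.

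In chr12:110003268-110030953 the differences were 3.37 (SE 1.28) on F and -1.84 (SE 0.61) on R. F stood at -0.48, 0.16 and 4.98 in WT and 4.79, 5.20 and 4.76 in KO replicates, so WT replicate 3 lay within the KO range, and against that array alone the difference was -0.062. The further wide gaps were in chr6:83368261-83407280 (1.31 on F, -3.35 on R), chr16:23992037-24001037 (-3.42 on F, 0.65 on R) and chr4:44181997-44249172 (1.75 on F, -2.21 on R). The strands of the chromosome 16 range were not clearly parted. Its other kept R probe differed by -1.76, on the side of F, and the R value of 0.65 was -0.047 against WT replicate 3 alone. In the chromosome 4 range R had 1 kept probe, and there KO replicate 3 (-2.48) lay inside the WT range. The other kept F probe of the chromosome 4 range differed by 0.59.

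**Figure D5:**
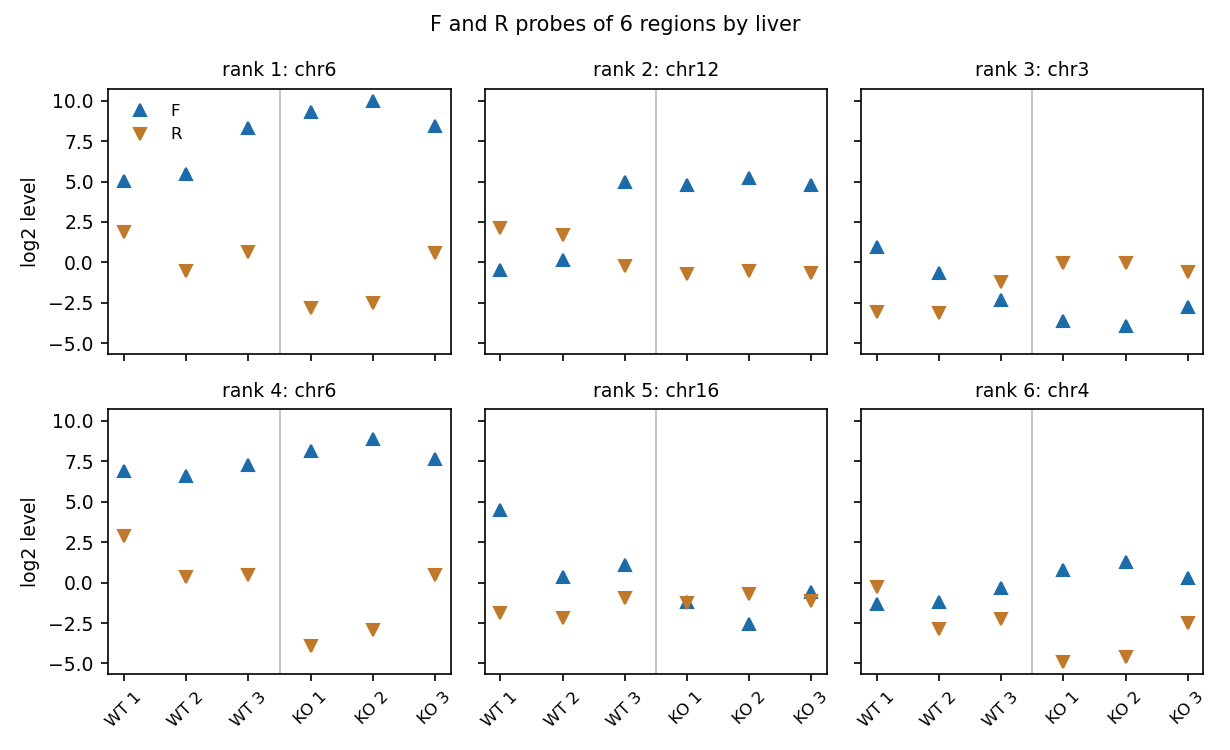
Levels (log2, relative to the 75th percentile) of the F and R probes on each array in ranges with both strands kept that had the widest gap between strand differences. In chr3 the strands are apart in opposite senses with no overlap between groups. In both chr6 ranges and in the chr4 range the R value of KO replicate 3 lies inside the WT range.

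Other ranges gave signal from 1 strand alone. In 105 ranges with both strands on the array, 1 strand was well above background on all 6 arrays and every probe of the opposite strand on none. On F of chr4:141527564-141547339 the level was 6.62, 5.69 and 7.06 in WT and 5.57, 6.03 and 6.71 in KO replicates, with overlapping groups, while the opposite probe had a mean of -5.20. On F of chr3:87757295-87774970, 5 of 5 probes were kept and the brightest averaged 6.06, while the best of 5 opposite probes stood at -4.69. The other 4 kept F probes stood at -2.71 to -1.24, so the bright signal came from 1 probe. These strand contrasts are between different probes and have no test.

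F of chr9:14460976-14488051 was the one named range of this kind with all its probes lower at an unadjusted limma p below 0.05. Its brightest probe read 5.78, 5.21 and 3.31 in WT and 3.25, 3.06 and 3.20 in KO replicates, a difference of -1.59 (SE 0.61, limma adjusted p = 0.235). WT replicate 3 was nearly level with the KO arrays, and against it alone the difference was -0.14. All 5 probes were below 0 in this respect, the largest at -1.75. The differences were small and the groups overlapped on R of chr2:65240793-65292293 (0.59), F of chr8:48476637-48492537 (0.082) and F of chr14:26973425-26986650 (-0.26).

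The range strands read by the most kept probes allow the closest look along a range. F of chr17:26911397-26917047 had all 10 probes kept, at levels from 0.53 to 2.93. Its brightest probe read 4.09, 3.47 and 2.99 in WT and 2.19, 2.04 and 2.79 in KO replicates, with no overlap and a difference of -1.18 (SE 0.40, limma adjusted p = 0.235). Across the 10, 8 differences were negative and 2 positive, from -1.18 to 0.24, and 4 passed the unadjusted threshold.

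F of chr16:43623581-43642715 had 9 of 10 probes kept, and their differences ran from -1.95 to 2.71, with 4 negative and 5 positive. F of chr5:74487385-74497428 also had 9 of 10 kept. Its brightest probe was steady, at 1.67, 1.20 and 1.75 in WT and 1.70, 2.11 and 1.63 in KO replicates, but other probes of the strand differed by as much as -1.32. On both of these strands the sister probes differed in sign.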

How the data were processed

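Cy3-labelled liver cRNA from 3 WT and 3 KO mice was hybridised to one-colour Agilent arrays, read with Feature Extraction 10.7.3.1, per the submitters' processing notes. The deposited scanner files hold a background-corrected processed intensity per spot, per the file headers, and the deposited series matrix holds log2 values of the same arrays. Set against the scanner files, each matrix column was the processed signal on a log2 scale shifted by 1 value for the array. The column medians were 4.41, 4.17 and 4.70 (WT) and 4.32, 4.44 and 4.52 (KO), and the origin of the shift is unknown.

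Control spots and spots marked as outliers were left out, spots of a probe were averaged, and log2 intensity minus the array's 75th percentile was taken. Probes well above background on 3 or more of 6 arrays were tested by limma 3.58.1 in R 4.3.3, two-sided, with Benjamini-Hochberg adjustment over 23101 probes, at 0.05. The test was run on simulated data in which all 6 arrays had independent noise with the SD of the KO group. Over all kept probes the median SD was 0.65 in WT and 0.22 in KO. The simulation left out this larger WT spread, so it cannot show how the test behaves with it. The members, the lists and the tests were chosen with earlier results of these data known. Members named are the 8 brightest, the 8 largest differences each way (unadjusted p below 0.05, no overlap), 8 bright and 6 widely parted strand pairs, 6 ranges with 1 strand, 4 with the most probes, and Gna12. Chromosome 18 was not named. The 6 arrays, with no molecule counts, limit the precision. Alternatives were other normalizations, filters, left-out arrays and the replicate number as a block.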

Additional observations from a re-analysis of the deposited data

How the results depend on the processing

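The members called numbered 0 with every scaling tried except quantile normalization, which gave 4. Leaving out 1 array gave 0 to 1313, and only the fit without WT replicate 3 gave more than 0. The members lower at an unadjusted limma p below 0.05 (429) numbered 189 with detection on all 6 arrays, 153 without WT replicates 1 and 2, and 174 to 718 with 1 array left out. The higher ones (388) numbered 4680 without a filter, 126 without WT replicates 1 and 2, and 149 to 804 with 1 array left out. Without a filter 16050 members stood in place of 3309, with a median difference of 0.51, and the lowest signals of the arrays were -5.41, -5.75 and -6.22 in WT and -5.08, -4.82 and -5.14 in KO replicates. With detection on all 6 arrays, 1959 members remained, and 80 of 172 strand pairs had the same sign. Taking the mean over kept probes of a strand, an alternative added after the data were seen, gave 150 of 319. Of 59 named probes, 11 changed sign without WT replicates 1 and 2, and 1 of the 11 had an unadjusted p below 0.05 with all arrays: chr12:110003268-110030953 on F, at -0.062. Normexp and quantile normalization each turned 4, none of which had such a p. Deviations of same-numbered arrays from their group means correlated at -0.13, 0.0091 and -0.0435, and those of other WT and KO arrays at -0.20 to 0.22. With so few arrays this cannot settle whether the numbers pair the animals. A replicate block gave 0 called, 396 lower and 366 higher. For members undetected in a group the size of the difference depended on the background treatment: of 5 named bounds on a fold, 4 exceeded the fold found with normexp.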
